A study of Mus musculus with 88 samples.

Results

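Nuclear RNA of non-neuronal cells in the mouse medial prefrontal cortex (mPFC) was compared between 30 and 10 minutes after contextual fear conditioning (CFC). The comparison holds 6 libraries of NeuN- nuclei, 3 at 10 minutes (CFC10) and 3 at 30 minutes (CFC30), chosen by their labels out of 88 samples in all. NeuN is a protein of neuronal nuclei, so the NeuN- gate collects astrocytes, oligodendrocytes and their precursors, microglia and vascular cells together. All animals were wild-type C57BL/6J males, 4 months old. Trained mice were placed in a chamber, received a pair of foot shocks and were killed 10 or 30 minutes after entering it, and naive mice stayed in their home cages. The 3 naive NeuN- libraries of the same region were fitted with the trained ones. Hippocampal NeuN- nuclei after the same training, prefrontal NeuN+ nuclei, and hippocampal glial nuclei taken 30 minutes after an injection of corticosterone (2 mg/kg) or saline were used to see where else the same genes moved. The labels do not say whether NeuN+ and NeuN- libraries came from the same animals.

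Glial cells respond to the signals that accompany neuronal activity, such as noradrenaline, glutamate, adenosine and growth factors, and to the glucocorticoid hormone that a foot shock releases into the blood. Signals that raise cyclic AMP lead to phosphorylation of CREB, a transcription factor that binds the cAMP response element and switches on early response genes such as those of the Nr4a family. The glucocorticoid receptor instead moves into the nucleus with its hormone and acts on its own set of genes, among them *Fkbp5*, *Tsc22d3*, *Sgk1* and *Per1*. Nuclear RNA, counted over introns and exons, holds mostly recent transcripts, so the difference between the times shows which genes changed after the first 10 minutes.

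Counts per library were 10577263 to 11515785 in the 9 prefrontal NeuN- libraries. Levels are given as CPM, read counts scaled to a common library total after TMM scaling of the library sizes. Where levels are compared among the hippocampal glial populations, or between naive NeuN- and NeuN+ nuclei, CPM is over library totals without TMM scaling. A gene was called where the adjusted p was under 0.05 (edgeR quasi-likelihood test, Benjamini-Hochberg). With 3 libraries a group, p-values measure the spread between these libraries. Marker sums overlapped between the times for astrocytes (7096 to 7447 CPM at 10 minutes, 7340 to 8021 at 30), oligodendrocytes (7110 to 7472 and 6717 to 7555) and microglia (1266 to 1494 and 1290 to 1564). Endothelial markers summed to 139 to 349 CPM at 10 and 196 to 592 CPM at 30 minutes, and all 7 tested members had a positive log2 fold change (median 0.48) with none called. Neuronal markers were present at both times, excitatory ones at 772 to 893 and 823 to 918 CPM and inhibitory ones at 409 to 498 and 425 to 612 CPM. Naive sums lay outside the 10-minute range for microglia (1652 to 1706 CPM) and oligodendrocytes (6000 to 6547). The same held for oligodendrocyte precursors (1742 to 1991 CPM in naive nuclei, 1494 to 1696 at 10 minutes). It held narrowly for inhibitory neurons (498.0 to 557 CPM in naive nuclei, at most 497.7 at 10 minutes). The markers of these cells so move with comparisons to naive nuclei. No tested marker of the 11 marker lists was called between the times. Over all 14866 tested genes 1702 were at an unadjusted p under 0.05 and 50.2% had a positive log2 fold change. Of 15 oligodendrocyte markers 12 had a negative log2 fold change (median -0.11), 6 were at an unadjusted p under 0.05 and DESeq2 called 2 as fallen, and all 6 tested inhibitory neuron markers had a positive one (median 0.40; 1 unadjusted, 0 by DESeq2). The part of these markers in the results was not tested. In bulk libraries a change in the number of cells of a type and a change in RNA per cell cannot be told apart.

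Between 10 and 30 minutes 82 genes rose (0.552% of the 14866 tested) and 22 fell (0.148%). The rises were led by the orphan nuclear receptors *Nr4a3* and *Nr4a2* and went on through cAMP regulators and a thyroid hormone enzyme. A large group of the risen genes was highest in astrocytic nuclei among sorted hippocampal glia. Log2 fold changes of the risen genes ran from 0.31 to 2.91 with a median of 0.55, a fold of 1.46, and 11 genes had a log2 fold change of 1 or more. The falls were small, from -0.80 to -0.37 with a median of -0.54, a fold of 0.690. The median over all tested genes was 0.00. In all 104 called genes the CFC10 and CFC30 libraries did not overlap in CPM, which held for 7.62% of tested genes with CFC30 higher and 7.86% with CFC30 lower. The counts depended on single libraries. Without CFC10 replicate 1 there were 128 rises and 74 falls, and without CFC10 replicate 2 there were 35 and 1. The falls also dropped to 2 without CFC10 replicate 3, to 12 without naive replicate 2, and to 9 without CFC30 replicate 1 or replicate 3. DESeq2 called 117 rises and 33 falls. The falls were 6 where the trained libraries were fitted without the naive ones.

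The 3 members of the Nr4a family all rose. They encode nuclear receptors that act without a known physiological ligand, and are among the genes that CREB switches on first. Their upstream sequences are shown because all 3 hold several copies of TGACG, the core of the cAMP response element, which reads as CGTCA on the other strand. Each line gives the 250 bases before the RefSeq start in the direction of the gene (GRCm38.p6), with every core in capitals.
Nr4a1, chr15:101266596-101266845 (+): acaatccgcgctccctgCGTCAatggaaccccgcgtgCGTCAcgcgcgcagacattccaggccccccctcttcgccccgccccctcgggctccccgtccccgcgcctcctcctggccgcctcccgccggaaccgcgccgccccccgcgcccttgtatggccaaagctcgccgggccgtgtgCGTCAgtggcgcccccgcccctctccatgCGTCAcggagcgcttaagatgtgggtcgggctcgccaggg
Nr4a2, chr2:57124004-57124253 (-): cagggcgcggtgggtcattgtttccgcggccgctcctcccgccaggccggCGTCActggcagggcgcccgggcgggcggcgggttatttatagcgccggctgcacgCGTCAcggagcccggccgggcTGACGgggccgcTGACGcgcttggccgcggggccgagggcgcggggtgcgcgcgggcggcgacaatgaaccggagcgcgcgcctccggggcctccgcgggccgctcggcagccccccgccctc
Nr4a3, chr4:48045055-48045304 (+): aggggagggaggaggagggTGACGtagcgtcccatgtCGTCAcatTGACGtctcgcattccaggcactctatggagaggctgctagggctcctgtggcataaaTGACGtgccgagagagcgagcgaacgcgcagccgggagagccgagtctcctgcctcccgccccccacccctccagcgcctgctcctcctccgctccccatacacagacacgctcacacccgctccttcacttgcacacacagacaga
Each of the 3 windows holds 4 cores. Of the 58 risen genes with a promoter from RefSeq, 5 had at least 4 between 250 bases before and 50 after the start (8.62%; *Coq10b*, *Slc25a3* and the Nr4a genes), as had 60 of 10010 tested genes (0.599%). This minimum was chosen after the Nr4a promoters had been seen. At least 1 core was in 26 of the 58 (44.8%) and in 35.3% of the tested genes.

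*Nr4a3* (chr4:48045153-48086447) had the largest rise. It stood at 3.12, 2.87 and 3.75 CPM in naive nuclei, at 6.05, 4.84 and 6.79 at 10 minutes and at 39.5, 57.5 and 35.7 at 30 minutes. The lowest library at 30 minutes was far above the highest at 10, and the log2 fold change was 2.91 (SE 0.18, adjusted p = 7.44e-07), a fold of 7.51. Against naive nuclei the log2 fold change was 0.86 at 10 minutes (adjusted p = 0.0991) and 3.77 at 30 minutes. *Nr4a2* (chr2:57106830-57124003) stood at 1.82, 1.91 and 1.50 CPM in naive nuclei and at 2.10, 1.99 and 2.57 at 10 minutes. At 30 minutes it stood at 12.6, 13.1 and 8.69, a log2 fold change over 10 minutes of 2.36 (SE 0.19, adjusted p = 1.47e-05). It was not called over naive at 10 minutes (0.34, adjusted p = 0.573) and was at 30 (2.70, adjusted p = 2.29e-06).

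*Nr4a1* (chr15:101254269-101274795) rose at each step. Its naive libraries stood at 7.12, 7.22 and 5.72 CPM, the CFC10 libraries at 13.0, 12.5 and 15.8 and the CFC30 libraries at 23.5, 28.9 and 19.7. It was called over naive at 10 minutes already (1.04, adjusted p = 0.0085), and then rose by a further 0.81 (SE 0.14, adjusted p = 0.0115). The 10-minute libraries of *Nr4a3* were likewise all above its naive ones, and whether the genes differ in this early change was not tested.

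*Fosl2*, which encodes one of the FOS-related partners in AP-1, went from 4.38, 3.89 and 4.31 CPM at 10 minutes to 8.90, 15.0 and 15.2 at 30, with naive libraries at 2.00 to 3.09. Its log2 fold change was 1.63 (SE 0.20, adjusted p = 0.000849). *Sik1*, a kinase that CREB induces and that holds back CREB's coactivators, went from 9.20, 6.57 and 8.99 CPM to 16.4, 29.6 and 19.6, a log2 fold change of 1.41 (adjusted p = 0.00552). *Gem*, a small GTPase that dampens voltage-gated calcium channels, went from 5.00, 5.71 and 7.61 CPM to 12.4, 15.2 and 12.4, a change of 1.13. In these 3 genes as well every library at 30 minutes was above every library at 10. *Ccn1*, a secreted matrix protein, rose by 0.85 near the threshold (adjusted p = 0.0492), and this call was lost in 10 of 15 alternative settings. *Crem*, whose short products repress cAMP response genes, rose by 0.41 (adjusted p = 0.027).

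The phosphodiesterases *Pde10a* and *Pde7b*, which break down cyclic nucleotides, also rose. *Pde10a* stood at 155, 152 and 163 CPM in naive nuclei, at 358, 339 and 685 at 10 minutes and at 952, 914 and 776 at 30 minutes. CFC10 replicate 3 lay close to the 30-minute libraries, and the log2 fold change of 0.93 (SE 0.19) was called at an adjusted p of 0.0349. In 10 of 15 alternative settings it was not called (adjusted p up to 0.19). *Pde10a* is best known from striatal neurons. The striatal marker *Drd1* stayed at or under 0.656 CPM and *Adora2a* between 2.10 and 3.33 CPM in all 9 NeuN- libraries. In prefrontal NeuN+ nuclei *Pde10a* itself was far higher, at 1366, 1511 and 1395 CPM in naive mice. It stood there at 2188, 2033 and 2862 CPM at 10 minutes, with replicate 3 again the highest, and at 2725, 2470 and 2562 at 30. The part of neuronal RNA in its NeuN- levels was not tested. *Pde7b* rose from 364, 324 and 392 CPM to 608, 554 and 549, a log2 fold change of 0.66 (adjusted p = 0.000348).

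**Figure D1:**
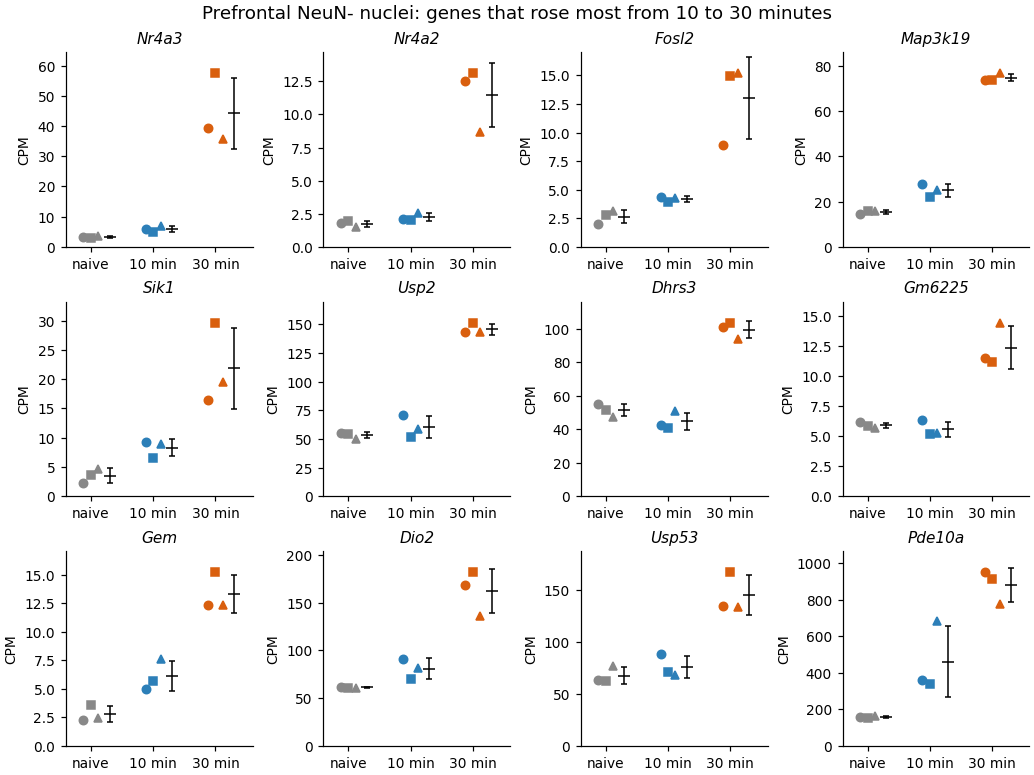
CPM (vertical axis, each panel starting at 0) of the 12 genes with the largest rises named by rule, in prefrontal NeuN- nuclei of naive mice and 10 and 30 minutes after CFC. Circles, squares and triangles are replicates 1, 2 and 3, and the bar is the mean with its SD (n = 3). In every panel the 3 libraries at 30 minutes lie above the 3 at 10 minutes, with the widest gap as a ratio in *Nr4a3* (35.7 to 57.5 against 4.84 to 6.79 CPM), and CFC10 replicate 3 of *Pde10a* lies at 685 CPM, near the 30-minute libraries.

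*Map3k19* and *Usp2* had closely spaced libraries at 30 minutes. *Map3k19*, a kinase of the MAP3 kinase family, stood at 14.5, 15.7 and 15.9 CPM in naive nuclei, at 27.8, 22.0 and 25.1 at 10 minutes and at 74.0, 73.9 and 76.8 at 30 minutes. Its log2 fold change was 1.58 (SE 0.09, adjusted p = 2.38e-07), with the smallest p of the comparison. *Usp2*, a ubiquitin-removing enzyme whose RNA cycles with the circadian clock, stood at 70.9, 51.9 and 58.5 CPM at 10 minutes, close to the naive 50.2 to 55.6, and at 143, 151 and 143 at 30 minutes (1.27, SE 0.09, adjusted p = 4.43e-06). *Dhrs3*, which reduces retinaldehyde and so lowers the supply of retinoic acid, stood at 42.9, 41.0 and 50.7 CPM at 10 minutes and 101, 104 and 94.1 at 30 minutes (1.15, SE 0.09). Its 10-minute libraries overlapped the naive ones (47.6 to 55.0 CPM).

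A pair of genes of thyroid hormone supply, singled out after their values had been seen, were among the rises. *Dio2*, the deiodinase with which astrocytes make active thyroid hormone, went from 91.3, 69.7 and 81.6 CPM to 169, 182 and 137, a log2 fold change of 1.01 (SE 0.10, adjusted p = 0.000144). *Slco1c1*, a transporter that brings thyroid hormone into the brain, went from 237, 246 and 291 CPM to 441, 464 and 351, a change of 0.70 (adjusted p = 0.00162).

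*Epas1*, the oxygen-regulated factor HIF-2 alpha, rose from 207, 196 and 200.3 CPM to 333, 454 and 338 (0.90, adjusted p = 0.000363). CFC30 replicate 2, its highest library, was also the library with the highest endothelial marker sum (592 CPM), and endothelial cells express *Epas1* and *Slco1c1*. The part of these cells in both rises was not tested. *Bambi*, a decoy receptor of BMP and TGF-beta signalling, rose from 1.93, 1.64 and 1.65 CPM to 4.59, 3.17 and 5.31 (1.31, adjusted p = 0.0139). *Usp53*, a protein of cell junctions, rose from 68.6 to 88.4 CPM at 10 minutes to 134 to 168 at 30 (0.94, adjusted p = 0.00069). *Gm6225*, a predicted gene, rose by 1.15 from 5.19 to 6.31 CPM to 11.2 to 14.5 CPM.

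Many of the risen genes were highest in astrocytic nuclei among the sorted glia. Of the saline libraries of sorted hippocampal glia, those of GFAP+ (astrocytic) nuclei held 36 of the 82 risen genes at 2 times or more the CPM of both PU.1+ (microglial) and 3X- nuclei, which lack NeuN, GFAP and PU.1. This is 43.9%, and the share of all tested genes was 11.6%. PU.1+ nuclei led 9 of them (11.0%, and 13.2% of all tested) and 3X- nuclei 3 (3.66%, and 7.61%). In naive prefrontal tissue 48 of the 82 (58.5%) and 34.1% of the tested genes were at 2 times or more in NeuN- over NeuN+ nuclei. Of the 36 genes led by GFAP+ nuclei 9 (25.0%, and 19.0% of all tested genes so led) were higher in naive NeuN+ than in naive NeuN- nuclei, among them *Dab1*, *Dkk3*, *Kctd1* and *Ntrk2* (for *Ntrk2* 1082 and 648 CPM). *Slco1c1* stood at 393 CPM in GFAP+, 41.2 in PU.1+ and 29.6 in 3X- nuclei, and *Rfx4*, a transcription factor, at 303, 7.90 and 39.7 CPM. *Mlc1*, an astrocyte membrane protein of water and ion balance, stood at 178, 7.82 and 4.86 CPM. Its prefrontal level rose from 69.6, 61.3 and 58.3 CPM to 93.9, 104 and 98.9, a log2 fold change of 0.65 (adjusted p = 0.000849). *Rfx4* rose by as much, from 196, 202 and 199 CPM to 315, 335 and 287 (0.65, adjusted p = 0.000144). *Ntrk2*, which encodes the BDNF receptor TrkB, rose by 0.60 (SE 0.08, adjusted p = 0.00133), and *Fgfr1*, a receptor for fibroblast growth factors, by 0.40 (adjusted p = 0.0457).

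A smaller group was led by microglial nuclei. *Cmklr1*, the receptor for chemerin, stood at 344 CPM in PU.1+ nuclei and at 2.92 and 3.57 in GFAP+ and 3X- nuclei. In prefrontal NeuN- nuclei it went from 62.8, 52.0 and 58.3 CPM to 88.8, 76.4 and 73.1, a log2 fold change of 0.46 (adjusted p = 0.018). *Rcsd1*, a regulator of actin capping, rose by 0.39 (adjusted p = 0.0457), and *Mfng*, which modifies Notch with sugars, by 0.61 (adjusted p = 0.0101). *Ctsh*, a lysosomal protease, rose by 0.52 (adjusted p = 0.0164). Over naive nuclei these 4 genes had log2 fold changes of -0.19 to 0.07 at 10 minutes.

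Several genes of amino acid transport and metabolism, singled out after their values had been seen, rose, while *Oat* (ornithine aminotransferase) fell (-0.53). *Eprs*, the synthetase that charges tRNAs with glutamate and proline, was steady at 67.8, 64.5 and 66.6 CPM at 10 minutes and stood at 107, 116 and 108 at 30 (0.73, SE 0.07, adjusted p = 3.37e-05). *Slc7a11* and *Slc3a2* encode the light and heavy chains of the cystine-glutamate exchanger. *Slc7a11* rose by 0.52 (adjusted p = 0.0152) and *Slc3a2* by 0.41 (adjusted p = 0.0358). *Slc38a1*, a glutamine transporter, went from 39.6, 43.5 and 46.0 CPM to 62.7, 63.1 and 86.1 (0.71, adjusted p = 0.0101). *Aass*, the first enzyme of lysine breakdown, rose by 0.49, and *Cdo1*, which oxidises cysteine, by 0.54.

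Several regulators of transcription, singled out after their values had been seen, were among the smaller rises. The Groucho corepressors *Tle1* and *Tle3* rose by 0.62 (adjusted p = 8.42e-05) and 0.39. *Hdac4*, a histone deacetylase that shuttles to the nucleus under kinase control, rose by 0.57 (adjusted p = 0.00147) and *Mef2d*, its partner in transcription, by 0.37 (adjusted p = 0.0139). *Foxo1*, a transcription factor that insulin signalling restrains, rose by 0.55 (adjusted p = 0.0155), and *Irs2*, an adaptor of the insulin receptor and no transcription factor, by 0.49 (adjusted p = 0.00929). *Per1*, a repressor in the circadian clock that glucocorticoids and CREB both induce, rose from 76.4, 72.2 and 66.0 CPM to 111, 145 and 110 (0.77, SE 0.10, adjusted p = 0.0012). Its naive libraries stood at 57.0 to 65.0 CPM.

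The 22 falls differed in how the 10-minute level stood to the naive one. Many of their calls depended on the setting. Among those named by rule, *Efna2*, *Ndp* and *Ephb3* lost the call in 9 of 15 alternative settings. *Zc3h6* lost it in 11, *Cdc42ep2* and *Coil* in 10, *Ndufa4* and *Nlrp3* in 8 and *Oat* in 6, whereas *Prdx1* was called in all 15. In one kind the 10-minute libraries were all above the naive ones and the level was lower again at 30. *Siah2*, a ubiquitin ligase, stood at 17.4, 16.5 and 18.5 CPM in naive nuclei, 27.2, 28.3 and 28.9 at 10 minutes and 20.4, 21.2 and 20.4 at 30 (-0.44, adjusted p = 0.0175). Over naive it was called at 10 minutes (0.69, adjusted p = 0.00188) and not at 30 (0.24, adjusted p = 0.116). *Prdx1*, a peroxide-removing enzyme, stood at 29.7 to 33.0 CPM, then at 35.9, 39.6 and 47.2, and then at 27.4, 25.3 and 27.9 (-0.61, SE 0.10, adjusted p = 0.00769), below every naive library. *Oat* (ornithine aminotransferase) went from 22.3, 25.6 and 22.3 CPM at 10 minutes to 16.2, 17.8 and 14.6 (-0.53), also below its naive libraries (18.2 to 21.2), and was not called over naive at 10 minutes (0.23, adjusted p = 0.293). *Efna2*, a ligand of Eph receptors, had the largest fall, from 7.54, 8.48 and 7.71 CPM to 5.24, 4.13 and 4.30 (-0.80, SE 0.17, adjusted p = 0.041), with naive libraries at 4.40 to 6.43. *Ndufa4*, a subunit of the respiratory chain, fell by 0.71 and *Cdc42ep2*, an effector of the GTPase Cdc42, by 0.62, each from a level called over naive at 10 minutes (0.63 and 0.56).

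In another kind the level was lower at each time. *Tnni1*, a troponin gene that stood at 76.9 CPM in hippocampal 3X- nuclei and at 5.72 and 1.18 in GFAP+ and PU.1+ nuclei, went from 66.7, 62.3 and 59.7 CPM in naive nuclei to 40.9, 51.0 and 49.6 at 10 minutes and 30.2, 34.0 and 33.1 at 30. Its log2 fold change between the times was -0.54 (SE 0.09, adjusted p = 0.0101). *Zc3h6*, a zinc finger gene, went from 66.1, 56.4 and 63.7 CPM to 30.9, 51.0 and 43.9 and then to 25.9, 26.5 and 28.0 (-0.65, adjusted p = 0.0457).

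In the last kind the 10-minute libraries overlapped the naive ones and the fall came after. *Plekho2*, a signalling adaptor, went from 38.0, 50.3 and 47.5 CPM to 27.5, 33.0 and 25.3 (-0.66, adjusted p = 0.0153). *Nlrp3*, the inflammasome sensor, which stood at 75.8 CPM in PU.1+ nuclei and at 0.35 and 0.52 in GFAP+ and 3X- nuclei, went from 13.1, 14.9 and 13.5 CPM to 10.2, 6.86 and 8.42 (-0.71, adjusted p = 0.043). *Ndp*, which encodes the astrocyte ligand Norrin, fell by 0.71, *Wnt7b*, another ligand of the Wnt pathway, by 0.46, and the Eph receptor *Ephb3* by 0.60. *Phyhipl* and *Coil*, the scaffold of Cajal bodies, fell by 0.52 and 0.57.

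**Figure D2:**
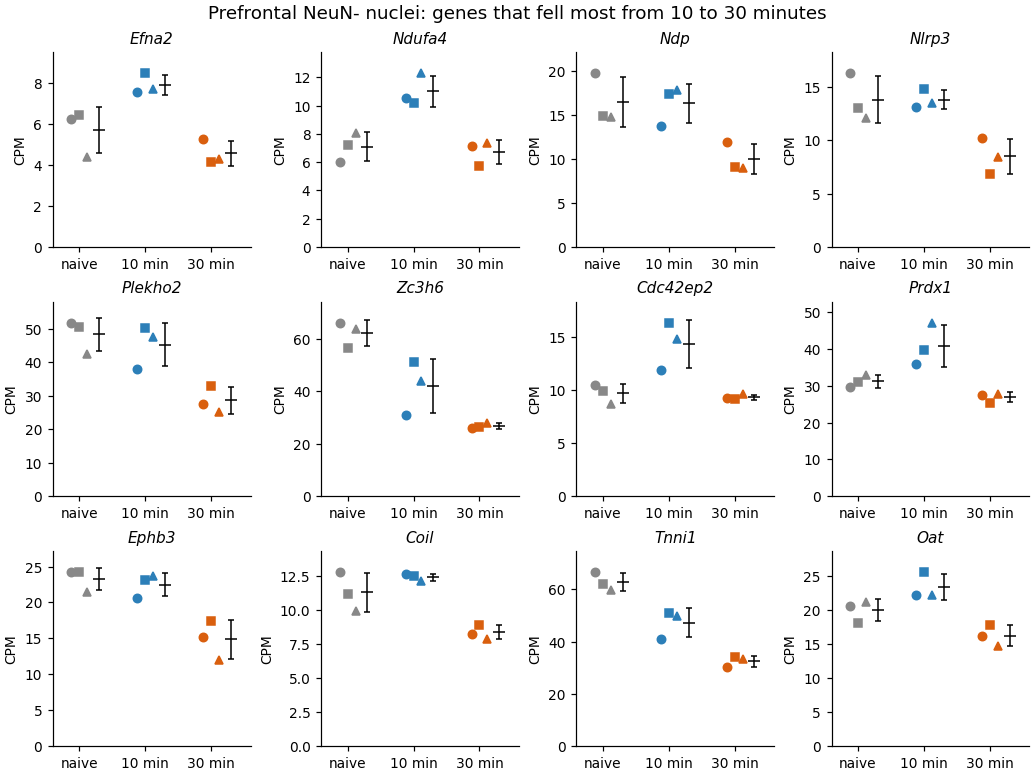
CPM (vertical axis, each panel starting at 0) of the 12 genes with the largest falls, in prefrontal NeuN- nuclei of naive mice and 10 and 30 minutes after CFC, drawn as for the rises (n = 3, mean and SD). In every panel the 30-minute libraries lie below those at 10 minutes. *Prdx1*, *Efna2* and *Ndufa4* stand higher at 10 minutes than in the naive mean, whereas *Tnni1* and *Zc3h6* step down at both times.

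Of 17 lists of related genes, those of early and cAMP responses held the most calls. Over all tested genes 0.552% rose and 0.148% fell. In the early response list 7 of 38 tested members rose and none fell, with a median log2 fold change of 0.10 (*Nr4a1*, *Nr4a2*, *Nr4a3*, *Fosl2*, *Sik1*, *Gem*, *Ccn1*). In the cAMP and CREB list 6 of 21 rose and none fell, with a median of 0.14 (the Nr4a genes, *Sik1*, *Pde7b*, *Crem*), and both lists share the Nr4a genes and *Sik1*. The mean log2(CPM + 1) of the cAMP list over the naive mean was 0.16, 0.16 and 0.22 in the CFC10 libraries and 0.61, 0.68 and 0.56 in the CFC30 libraries. This mean includes the 6 called members, so it is not separate from their calls, and it was not taken without them. Early response genes best known from neurons did not pass the test between the times. *Arc* stood at 12.1, 14.0 and 13.5 CPM at 10 minutes and 15.3, 15.1 and 11.0 at 30 (0.06, SE 0.13, adjusted p = 0.905), with naive libraries at 5.74 to 6.86. *Egr1* stood at 4.56, 5.54 and 8.35 CPM and then at 5.71, 8.36 and 4.48 (0.02, SE 0.24). *Npas4* was at or under 1.56 CPM in all 9 libraries and was not tested.

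Few members of the glucocorticoid list were called, though most had a positive fold change. Of its 35 tested members *Per1* and *Fam107a* rose and none fell, 29 had a positive log2 fold change, 17 were at an unadjusted p under 0.05, and the median was 0.25. Over all 14866 tested genes 0.552% rose, 50.2% had a positive change and 1702 were at an unadjusted p under 0.05. *Fam107a*, a stress-induced regulator of actin, went from 208, 173 and 166 CPM to 250.4, 288 and 288 (0.59, adjusted p = 0.00333). *Sgk1*, a kinase induced by the receptor, stood at 117, 67.0 and 70.4 CPM at 10 minutes and at 132, 148 and 126 at 30 (0.67, adjusted p = 0.0843). CFC10 replicate 1 was near the 30-minute libraries for this gene, and without it *Sgk1* was called (0.98, adjusted p = 5.34e-05). The same library stood apart for *Fkbp5* (128 CPM, and 52.4 and 46.3 in the others at 10 minutes), *Tsc22d3* (214, and 130.5 and 119.9 CPM) and *Zbtb16* (882, and 374 and 302 CPM), genes singled out after their values had been seen. The mean log2(CPM + 1) of the list over naive was 0.40 in this library and 0.19 and 0.12 in the other CFC10 libraries, and 0.37, 0.71 and 0.44 in the CFC30 libraries. *Nr3c1*, the gene of the receptor, stood at 224 to 264 CPM at 10 and 221 to 259 at 30 minutes (-0.01).

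Chaperone and other stress genes were not called between the times. Their counts at an unadjusted p under 0.05 stand beside 1702 of all 14866 tested genes. None of 41 cytosolic chaperones passed the test, 7 were at an unadjusted p under 0.05, and DESeq2 called 1 of them, *Hsph1*. *Hsph1*, a partner of HSP70, stood at 44.1, 34.7 and 35.8 CPM at 10 minutes and at 62.3, 72.1 and 42.4 at 30 (0.62, adjusted p = 0.0853). Its naive libraries stood at 26.1 to 28.6 CPM. *Hspa8* stood at 85.7, 73.3 and 84.4 and then 87.9, 90.3 and 74.3 CPM (0.05), with naive libraries at 45.9 to 59.5. The mean log2(CPM + 1) of the chaperone list over the naive mean was 0.28, 0.23 and 0.29 in the CFC10 libraries. It was 0.40, 0.45 and 0.27 in the CFC30 libraries and -0.06 to 0.05 in the naive ones. None of 23 endoplasmic reticulum stress genes passed (4 at an unadjusted p under 0.05, 0 by DESeq2), with *Hspa5*, the chaperone BiP, at 0.33 (SE 0.08, adjusted p = 0.106). Among 28 p53 and DNA damage genes none passed (6 unadjusted, 0 by DESeq2). *Lig4*, the ligase of end joining, stood at 4.47, 2.77 and 3.85 CPM and then at 1.87, 1.67 and 2.20 (-0.95, adjusted p = 0.0928). Its naive libraries stood at 1.48 to 1.87 CPM.

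The remaining lists held few calls. Over all 14866 tested genes 0.552% rose and 1702 were at an unadjusted p under 0.05. In the FOXO and mTOR list 2 of 22 rose (*Irs2*, *Foxo1*; median 0.15), in the clock list 1 of 19 (*Per1*; 0.02), in the Notch, BMP and TGF-beta list 1 of 20 (*Bambi*; -0.02), and in the astrocyte metabolism list 1 of 25 (*Slc38a1*; 0.06). At an unadjusted p under 0.05 were 8 of the FOXO and mTOR list, 5 each of the clock and Notch lists and 6 of the astrocyte list. Of 12 MAPK feedback genes *Rasa2*, which switches Ras off, rose by 0.52 (adjusted p = 0.000503) and none fell. Among the 12, 8 had a negative log2 fold change (median -0.18) and 8 were at an unadjusted p under 0.05. These counts are not of the same genes, since *Rasa2* is in the latter only. No member was called among 19 genes of NF-kB and cytokines (6 unadjusted, 1 by DESeq2), 30 of cholesterol and fatty acid synthesis (5 and 2), 19 of hypoxia and glycolysis (3 and 0), 28 of splicing (1 and 0), 9 of metallothioneins and zinc (0 and 0) and 15 nuclear noncoding RNAs (4 and 1).

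**Figure D3:**
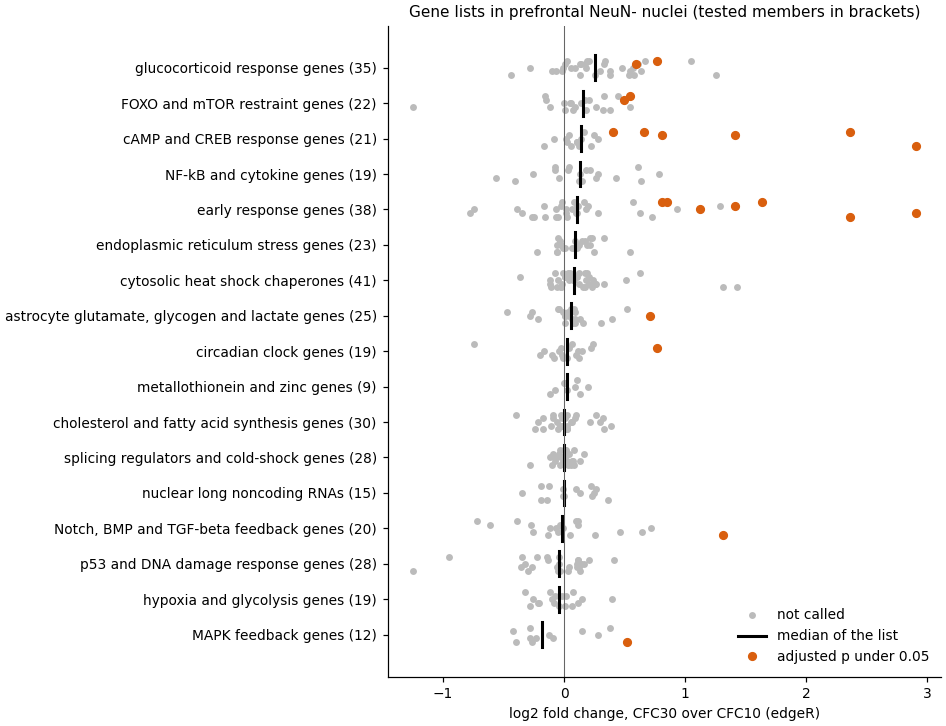
Log2 fold change of CFC30 over CFC10 (horizontal axis) of every tested member of 17 gene lists in prefrontal NeuN- nuclei, with the list median marked and called members coloured. The cAMP list holds 6 called rises among 21 members, and 0.552% of all tested genes rose. The glucocorticoid list has the highest median (0.25) with 2 called members of 35, and the median of all tested genes is 0.00.

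The same contrast in hippocampal NeuN- nuclei rests on other libraries, 4 for each time, made with a later version of the library kit, so region and kit cannot be told apart. There 15 genes rose (0.101% of 14802 tested) and 10 fell (0.0676%). Of the 82 genes risen in the mPFC 80 were tested there, 12 rose and 76 had a positive log2 fold change, with a median of 0.25 against 0.00 over all genes. The 12 were *Arid5a*, *Dhrs3*, *Dio2*, *Hdac4*, *Map3k19*, *Nr4a3*, *Pde10a*, *Slco1c1*, *Tle1*, *Usp2*, *Usp53* and *Zswim6*. Of the 22 fallen genes 3 fell there (*Oat*, *Plekho2*, *Prdx1*), and none of the 22 had a positive fold change (median -0.31). *Map3k19* stood at 21.4, 12.8, 19.2 and 15.5 CPM at 10 minutes and at 39.2, 33.2, 41.1 and 31.0 at 30 in the hippocampus (1.07, adjusted p = 0.0036). *Prdx1* went from 37.1, 46.1, 41.8 and 45.8 CPM to 30.2, 25.8, 29.0 and 33.8 (-0.53, adjusted p = 0.0245). The count of 12 fell to 1 without hippocampal CFC10 replicate 2 or CFC30 replicate 1 and to 6 without CFC10 replicate 4. The count of 3 fell to 0 without any of these 3 or CFC10 replicate 3, and was 6 without CFC10 replicate 1.

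The difference between the regions was called for 5 genes, all with the larger log2 fold change in the mPFC (0.0317% of 15769 tested), and for none in the other direction (0% of tested; 0 by DESeq2; 429 genes in both directions at an unadjusted p under 0.05). *Nr4a3* reached only 17.9, 16.9, 12.4 and 9.34 CPM in the hippocampus at 30 minutes, from 5.27 to 8.91 at 10, a change of 0.98 and a difference of 1.92 (SE 0.30, adjusted p = 0.00695). *Nr4a2* differed by 2.08 (SE 0.33), with hippocampal libraries at 2.39 to 3.40 CPM at 10 and 1.99 to 4.57 at 30 minutes, which overlap. *Fosl2* differed by 1.31 (adjusted p = 0.0462). *Usp2* differed by 0.83 (SE 0.11) and *Dhrs3* by 0.80 (adjusted p = 0.00102 each), and both rose in each region.

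In prefrontal NeuN+ nuclei 98 genes rose between the times (0.755% of 12987) and 69 fell (0.531%). Of the 82 risen genes of NeuN- nuclei 57 were tested there. *Arhgap31*, *Ddah1* and *Zswim6* rose, *Arl4d*, *Coq10b*, *Nr4a1* and *Usp2* fell, and the median was 0.04. Of 16 tested fallen genes 1 fell, *1190002N15Rik*. *Nr4a1* stood at 107, 106 and 104 CPM in NeuN+ nuclei at 10 minutes and at 84.4, 69.3 and 71.3 at 30 (-0.49, adjusted p = 0.000194), with naive libraries at 35.7 to 42.9. *Arl4d*, a small GTPase, went from 2.55, 2.74 and 2.19 CPM to 1.40, 1.17 and 1.47 in NeuN+ nuclei (-0.90) and from 3.77, 3.20 and 2.94 to 5.06, 6.95 and 6.86 in NeuN- nuclei (0.93, adjusted p = 0.0401; lost in 8 of 14 alternative settings). The count of 3 rises was 9 without NeuN+ CFC10 replicate 1, 5 without CFC30 replicate 3, and 1 without CFC10 replicate 2, CFC30 replicate 1 or CFC30 replicate 2. The 1 fall was 3 without CFC10 replicate 1 and 0 without CFC10 replicate 2, CFC30 replicate 1 or CFC30 replicate 2.

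The difference between the fractions was called higher in NeuN- nuclei for 33 genes (0.199% of 16559) and lower for 7 (0.0423%). *Usp2* had the smallest p. In NeuN+ nuclei it went from 34.4, 35.0 and 37.2 CPM to 28.9, 29.5 and 24.8, and the difference of the log2 fold changes was 1.61 (SE 0.13, adjusted p = 9.81e-08). *Nr4a3* stood at 75.0, 46.0 and 44.4 CPM in NeuN+ nuclei at 10 minutes and 63.5, 59.1 and 70.9 at 30 and so overlapped there, with a difference of 2.66 (SE 0.28, adjusted p = 8.00e-06). *Nr4a2* differed by 2.93, *Nr4a1* by 1.28 and *Coq10b*, a protein of coenzyme Q transport, by 1.16. *Arc* differed by 1.07 (adjusted p = 0.00875) through its NeuN+ level, which went from 73.1, 60.6 and 62.0 CPM to 31.1, 29.7 and 35.6 there. On the lower side *Cpeb4*, a regulator of translation, differed by -0.65 (adjusted p = 0.00875), with -0.40 in NeuN- nuclei (adjusted p = 0.0842) and 0.23 in NeuN+ nuclei (adjusted p = 0.0173). The 7 lower calls were 13 without NeuN- CFC10 replicate 1 and 1 without NeuN- CFC10 replicate 2, NeuN+ CFC30 replicate 1 or NeuN+ CFC30 replicate 2. They were 2 without NeuN+ CFC10 replicate 2, 3 without NeuN- CFC10 replicate 3, and 4 without NeuN- CFC30 replicate 2 or NeuN+ CFC10 replicate 3.

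**Figure D4:**
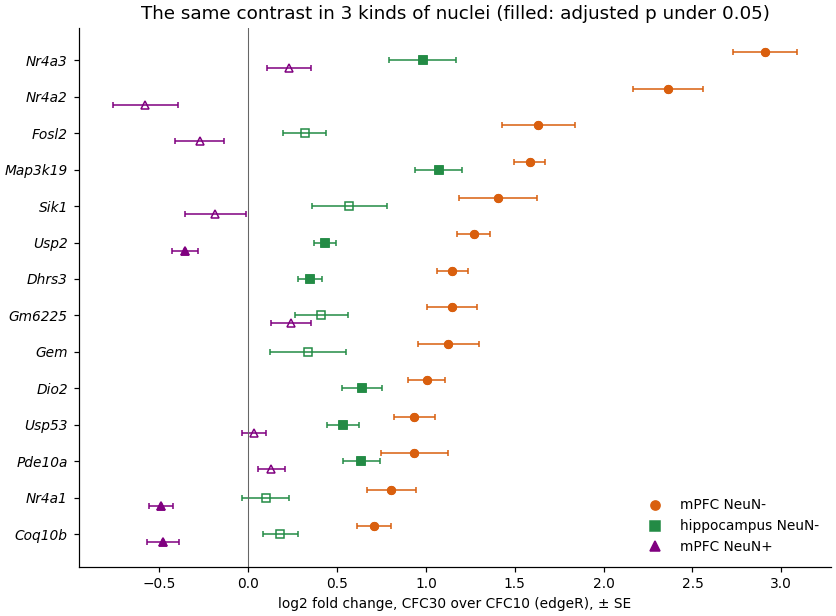
Log2 fold change of CFC30 over CFC10 with its SE (horizontal axis) for 14 genes in prefrontal NeuN-, hippocampal NeuN- and prefrontal NeuN+ nuclei, filled where the adjusted p was under 0.05. *Nr4a3* lies at 2.91, 0.98 and 0.23, *Usp2* at 1.27, 0.43 and -0.35, and *Nr4a1* at 0.81, 0.10 and -0.49. A gene without a symbol in 1 of the kinds was not tested there.

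Corticosterone, the glucocorticoid of rodents, gave a further view in libraries of other animals. In GFAP+ nuclei 295 genes were higher than after saline (2.03% of 14527) and 130 lower (0.895%), in PU.1+ nuclei 633 (4.43% of 14279) and 487 (3.41%), and in 3X- nuclei 730 (5.0% of 14587) and 361 (2.47%). Of the risen genes 9 of 77 tested rose and 2 fell in GFAP+ nuclei, 14 of 70 rose and 7 fell in PU.1+ nuclei, and 16 of 68 rose and 1 fell in 3X- nuclei. In 22 of the 82 there was a rise in at least 1 population, and 4 rose in every one (*Fam107a*, *Irs2*, *Tle3*, *Usp2*). The same counts over all tested genes were not taken, so neither is read as an excess. Some of the 82 were not tested in every population. *Usp2* went from 62.3, 72.7, 68.4 and 66.2 CPM after saline to 79.1, 79.5, 84.7 and 77.9 after corticosterone in GFAP+ nuclei (0.25, adjusted p = 0.0395). *Fam107a* went from 217, 319, 313 and 256 CPM to 469, 466, 481 and 464 in the same nuclei (0.77, adjusted p = 0.000841).

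Of the 4 rises with the largest folds after CFC, *Nr4a3*, *Nr4a2* and *Map3k19* were not called after the hormone and *Fosl2* was. *Nr4a3* changed by -0.26, 0.08 and 0.01 in GFAP+, PU.1+ and 3X- nuclei (adjusted p 0.537 to 0.988), *Nr4a2* by -0.10 and 0.01 in GFAP+ and PU.1+ nuclei, and *Map3k19* by -0.23 in GFAP+ nuclei, where alone it was tested. *Fosl2* was called in PU.1+ nuclei only, from 12.2 to 14.6 CPM to 24.2 to 29.7 (0.96, adjusted p = 6.08e-06), and whether its changes differ between populations was not tested. *Sik1* was called in PU.1+ and 3X- nuclei and *Dio2* in GFAP+ and 3X- nuclei. *Per1* was called in PU.1+ (1.32) and 3X- nuclei (0.34) and stood at 0.06 in GFAP+ nuclei, and *Nr4a1* was called in 3X- nuclei (0.80). *Dhrs3* and *Zswim6* were among the 7 that fell in PU.1+ nuclei. The glucocorticoid list itself had 27 of 37, 22 of 32 and 25 of 34 tested members higher after the hormone in GFAP+, PU.1+ and 3X- nuclei. Of all tested genes 2.03%, 4.43% and 5.0% were higher there.

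Of the fallen genes 6 of 21 tested fell in GFAP+ nuclei (*Ephb3*, *H3f3a*, *Phyhipl*, *Plekho2*, *Prdx1*, *Wnt7b*), 3 of 16 in PU.1+ and 8 of 20 in 3X- nuclei, and none rose. Of all tested genes 0.895%, 3.41% and 2.47% were lower in these populations. *Prdx1* went from 36.3, 36.2, 32.0 and 35.0 CPM to 23.8, 22.6, 25.9 and 24.3 in GFAP+ nuclei (-0.52, adjusted p = 0.00146) and fell by 0.60 in 3X- nuclei. *Phyhipl* went from 109, 125, 116 and 112 CPM to 78.1, 75.1, 87.4 and 82.3 in GFAP+ nuclei (-0.52, adjusted p = 0.000643), and by -0.84 in 3X- nuclei. The 9 rises in GFAP+ nuclei were 14 without saline replicate 2. The 3 falls in PU.1+ nuclei were 1 without saline replicate 1, corticosterone replicate 1 or corticosterone replicate 3, and the 8 in 3X- nuclei were 5 without saline replicate 1, saline replicate 4 or corticosterone replicate 4.

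**Figure D5:**
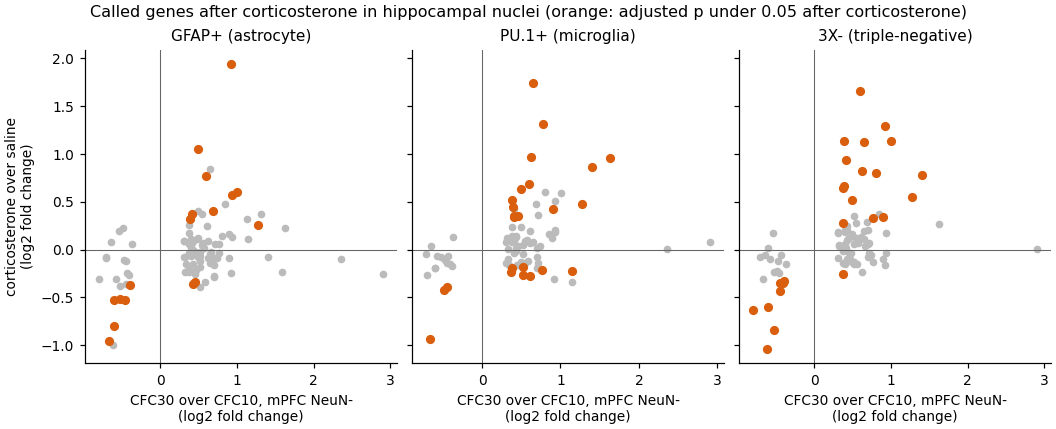
Log2 fold change after corticosterone over saline in hippocampal GFAP+, PU.1+ and 3X- nuclei (vertical axes) against that of CFC30 over CFC10 in prefrontal NeuN- nuclei (horizontal axes) for the called genes tested in each population, orange where the adjusted p after corticosterone was under 0.05. The largest prefrontal rise, *Nr4a3* at 2.91, lies near 0 on each vertical axis (-0.26, 0.08 and 0.01), and the called points on the falling side all lie below 0.

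γH2AX, the phosphorylated histone that marks chromatin around DNA double-strand breaks, was mapped in whole tissue, so its peaks carry no cell type. The lists used here hold fewer peaks than the study describes, so a gene counted without a peak may have one. In the mPFC 260 peaks were listed, and 7 of the 82 risen genes had one (8.54%; *3110039M20Rik*, *Arl4d*, *Cbarp*, *Nr4a1*, *Ntrk2*, *Per1*, *Usp2*), as had 267 of the 14866 tested genes (1.8%) and none of the 22 fallen genes. Of the 282 hippocampal peaks 5 of the risen genes had one (6.1%, and 1.95% of tested; *3110039M20Rik*, *Cbarp*, *Cpe*, *Nr4a1*, *Per1*). The lists pool replicates, join peaks of naive and trained tissue, and hold no value per sample. A listed peak may so have been present before training. The paper counts more peaks after training, but describes most peaks at induced genes as found in naive tissue too. It also reports more γH2AX in mPFC genes with higher RNA expression. Whether expression level accounts for the shares above was not tested.

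The full cAMP response element, TGACGTCA, was in the promoters of *Arl4d* and *Dio2*, 2 of the 58 risen genes with a promoter (3.45%), and in 3.65% of the tested genes. It was also in 1 of the 18 fallen genes with a promoter (5.56%; *Akirin1*). These stretches are shown because both genes rose, with the element in capitals, in the direction of the gene (GRCm38.p6).
Dio2, chr12:90739100-90739159 (-): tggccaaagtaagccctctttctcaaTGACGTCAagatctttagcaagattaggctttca
Arl4d, chr11:101665489-101665540 (+): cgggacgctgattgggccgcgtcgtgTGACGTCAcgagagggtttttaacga
The E-box CACGTG was in 8 of the 58 (13.8%, and 11.7% of tested), and TGTTCT, the core of the glucocorticoid response element, in 8 (13.8%, and 14.6%). AAAGGTCA, the element that Nr4a proteins bind as monomers, was in 0 of the 58 and in 1.06% of tested genes. Both strands were searched from 250 bases before to 50 after the start, and the core of the cAMP element lies within the full one.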

How the data were processed

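The deposited values are raw counts of reads per gene. The authors trimmed template-switch bases (Trimmomatic), aligned reads to GRCm38 (HISAT2), removed duplicates (Picard) and counted reads over exons and introns (featureCounts); the strand setting is not given in the sources used here, so overlapping genes may share reads. Genes were tested, where any group's mean FPKM passed 0.2, with edgeR 4.0.16 (quasi-likelihood test, TMM) in R 4.3.3. The prefrontal NeuN- fit held 9 libraries, the naive ones adding to the estimate of the spread. Standard errors were taken from the F statistic. Hippocampal NeuN- naive replicates with identical counts were used once, which left 11 libraries. DESeq2 1.42.0 was an alternative. The prefrontal NeuN- fit was also run on simulated data with 200 changed genes. At a log2 change of 0.5 it recovered 125 of them and called 11 unchanged genes. At a log2 change of 1 it recovered 197 and called 22 unchanged genes. The changed genes were drawn from those above a minimum count, and the noise was independent between genes and libraries. Recovery at lower counts, or with shifts that many genes of a library share, was not measured. Python 3.11.15 with pandas 2.3.3 made tables.

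Named by rule were 12 rises and 12 falls of largest size, called, with a mean count of at least 50 and groups that do not overlap, 3 members of each list by p, 5 genes of each difference and of each corticosterone population by p, and genes the study names. Other called genes were named after their values had been seen. The comparison, lists and rules were chosen with earlier results of these data known. Promoters came from a RefSeq table (58 of 82 risen and 18 of 22 fallen genes matched). Peaks are intervals without a score, called by the authors on merged replicates. A further gene list is not reported here.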

Additional observations from a re-analysis of the deposited data

Results flagged for a closer look

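The log2 fold change from 10 to 30 minutes differed between prefrontal NeuN- and NeuN+ nuclei in an edgeR test of the difference itself. It was higher in NeuN- nuclei by 2.66 for *Nr4a3*, 2.93 for *Nr4a2*, 1.61 for *Usp2*, 1.16 for *Coq10b* and 1.28 for *Nr4a1*. It differed by -0.65 for *Cpeb4*, -0.60 for *Phyhipl*, -0.47 for *Spred1*, -0.91 for *Trib2* and -0.66 for *Ccdc148*. Between prefrontal and hippocampal NeuN- nuclei it was higher in the mPFC by 1.92 for *Nr4a3*, 2.08 for *Nr4a2*, 1.31 for *Fosl2*, 0.83 for *Usp2* and 0.80 for *Dhrs3*.

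Single corticosterone or saline libraries stood apart from the others of their group of 4 by Dixon's test. *Phyhipl* was at 81.9 CPM in saline replicate 4 of 3X- nuclei (the others at 85.5 to 86.2). *Cables1* was at 655 CPM in saline replicate 1 and at 1049 in corticosterone replicate 3 of PU.1+ nuclei, and at 159 in corticosterone replicate 2 of 3X- nuclei. These are 4 of 50 groups tested, and chance flags about 1 in 20.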

How the results depend on the processing

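None of the 42 called genes named by rule changed direction under any of 15 alternatives. Called genes named after their values had been seen, such as *Epas1*, *Slco1c1*, *Ntrk2*, *Fgfr1*, *Rcsd1* and *Siah2*, were not followed singly under the alternatives. Among the genes named by rule and not called, *Arc*, *Egr1*, *Hspa8*, *Nr3c1* and *Tuba1a* changed sign. Their log2 fold changes were at most 0.12 in size, and they were not called in either direction. Of the 42 called genes named by rule 17 were called under every alternative, and of 53 not called 33 were called under none. Counts moved more than directions, and with 3 libraries a group they are imprecise. Scaling with DESeq2's size factors gave 84 rises and 22 falls.

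With a filter of 1 count in place of the FPKM filter there were 356 rises and 148 falls in prefrontal NeuN- nuclei. With it the hippocampus had 145 and 68 (32 risen and 9 fallen prefrontal genes among them), NeuN+ nuclei 224 and 151 (7 and 2), the fraction difference 107 and 48, the region difference 24 and 27, GFAP+ nuclei 447 and 263 and 3X- nuclei 2004 and 778. The falls were 12 with edgeR's own filter and 6 from the trained libraries alone. DESeq2 gave 48 and 26 in the hippocampus (27 and 6) and 34 falls in NeuN+ nuclei (0 of the fallen genes). The cause was not tested.

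With the replicate number as a block there were 92 rises and 24 falls, *Sgk1* was called (adjusted p = 0.049) and 14 risen genes were higher in GFAP+ nuclei after corticosterone. Deviations of same-numbered CFC10 and CFC30 libraries correlated at 0.0036 to 0.245 and others at -0.241 to 0.162, so the numbers were not taken as pairs. Same-numbered NeuN- and NeuN+ libraries correlated at 0.081 to 0.163 in naive mice (others -0.109 to 0.033), 0.090 to 0.124 at 10 minutes (others -0.077 to -0.036) and 0.033 to 0.134 at 30 (others -0.097 to 0.048). Each NeuN- library correlated best with the NeuN+ library of its own number, a hint from the data and not the design. With the block the fraction difference had 42 and 10 calls.

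Leaving out 1 library at a time gave 35 to 128 rises and 1 to 74 falls. For the hippocampus it gave 2 to 21 and 0 to 15 (1 to 16 risen and 0 to 6 fallen genes), for NeuN+ nuclei 20 to 278 and 24 to 202 (1 to 9 and 0 to 3), for the fraction difference 22 to 49 and 1 to 13, and for the region difference 4 to 5 and 0. For GFAP+ nuclei it gave 174 to 378 and 57 to 126 (6 to 14 and 5 to 6), for PU.1+ nuclei 500.0 to 651 and 367 to 507 (13 to 19 and 1 to 4) and for 3X- nuclei 607 to 796 and 280.0 to 447 (15 to 19 and 5 to 8).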
